A study of Homo sapiens with 12 samples.

Results

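Ribosome footprints in polysomes, the gradient fractions in which several ribosomes share an mRNA, were compared between amino acid starvation and serum starvation of HEK293 cells, a human embryonic kidney line. The comparison holds 4 of the 12 libraries of the series, chosen by their labels: libraries A and B of amino acid starvation polysomes and libraries A and B of serum starvation polysomes. Amino acid starvation was 1 h in Earle's balanced salts with MEM vitamins, antibiotics and 10% fetal bovine serum, so these cells lacked amino acids while serum was present. Serum starvation was 2 h without fetal bovine serum, and the labels name no other change of the medium. The starvations thus differ in the nutrient removed, in the salts named and in time, and these cannot be told apart. Log phase cells in DMEM with 10% serum gave 2 more polysome libraries, which entered the fit so that the spread was estimated over 6 libraries. All lysates held cycloheximide, which stalls elongating ribosomes.

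Cells read amino acids and growth factors through partly separate inputs that meet at the kinase complex mTORC1. Active mTORC1 promotes translation of 5'TOP mRNAs, whose first nucleotides are a cytosine followed by a run of pyrimidines and which encode ribosomal proteins and several translation factors. Lack of amino acids also activates the kinase GCN2, which slows initiation in general and favours a few mRNAs such as ATF4. Withdrawal of serum removes growth factors and lipids from the medium.

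The pyrimidine run is shown first for genes on which the results below turn, because it is the feature that defines 5'TOP mRNAs. The lines give 5 bases before and 20 bases from the RefSeq transcript start (GRCh38.p14), on the transcribed strand and 5′ to 3′. Capitals mark a C at the start base followed by at least 4 pyrimidines. The first 6 genes have such a run at the RefSeq start and the last 4 do not.
RPL12, chr9:127451387-127451411, minus strand: tccggCCTCTCggctttcggctcgg
RPL28, chr19:55385927-55385951, plus strand: ccttcCTCTTTCCgtctcaggtcgc
RPS27, chr1:153990757-153990781, plus strand: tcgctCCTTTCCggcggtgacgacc
RPLP2, chr11:809962-809986, plus strand: gccttCCTTTTCCTCCCTgtcgcca
EEF1A1, chr6:73521013-73521037, minus strand: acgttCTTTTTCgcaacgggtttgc
EEF2, chr19:3985444-3985468, minus strand: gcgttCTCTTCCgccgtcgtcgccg
RPS28, chr19:8321491-8321515, plus strand: acgtgactcctctccgccagaccgc
GNL3, chr3:52685915-52685939, plus strand: gtcccgcggccgccaagcgatccct
SF3B2, chr11:66052359-66052383, plus strand: tggtcgcgcgccttcctgcggctaa
HAT1, chr2:171922456-171922480, plus strand: gggttgattcgtccttcctcagccg

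Coding footprints numbered 1493881 and 2598103 in the 2 amino acid starvation libraries and 3969458 and 3384389 in the 2 serum starvation libraries (A first, then B), which was 58.5 to 63.7% of the footprints in these 4 libraries. Of 6375 genes with a called coding open reading frame (ORF), 5324 held enough footprints to be tested. Levels are normalized counts of footprints scaled to 1000000 coding footprints of a library (CPM), and many called ORFs cover only part of a coding sequence. A level follows mRNA abundance and translation together, no mRNA libraries were analysed here, and scaling within a library hides any change in the total amount of polysomes. No label says that A and B are separate cultures, so p-values measure the spread between these libraries only. Of 6 HEK293 markers, the filament genes VIM, NEFM and NEFL were tested and present in all 4 libraries. KRT8 did not reach the test, and KRT18 and PAX2 had no coding ORF under their names. Leukocyte, erythroid and muscle markers gave 0 tested genes and fibroblast markers 1.

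Amino acid starvation polysomes held fewer footprints on ribosomal protein and histone genes and more on HSP70 and HSP90 chaperone, tRNA synthetase, CCT chaperonin and mitotic genes than serum starvation polysomes did. Of the 5324 genes, 353 (6.63%) were higher and 404 (7.59%) lower in amino acid starvation, 757 (14.2%) in all (edgeR's quasi-likelihood test with the letter as a block, Benjamini-Hochberg adjusted p under 0.05), and 1548 (29.1%) had an unadjusted p under 0.05. The median log2 difference over all genes was 0.01. All 353 higher and all 404 lower genes went the same way in the A pair and in the B pair. The test was fitted to these same pairs, so this agreement follows largely from passing it. Over all genes tested both pairs were higher for 32.5% and both lower for 34.3%. Of the 12 largest falls among genes with at least 50 CPM, 11 were ribosomal proteins.

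The calls rest on the letter block. Without the block 0 genes passed (79 of 5324 at an unadjusted p under 0.05, edgeR's quasi-likelihood test). Leaving out serum starvation library A gave 23 higher and 62 lower genes, and leaving out amino acid starvation library A gave 207 and 169. Without amino acid starvation library B the counts were 601 and 762, without log phase library A 167 and 222, and without log phase library B 224 and 206. All 757 genes kept the sign of their difference in each of these fits, which reuse libraries of the main fit. The letter also ran with the calls. Of the 353 genes higher in amino acid starvation, 95.8% had more footprints in B than in A within amino acid starvation and 98.9% within serum starvation, where the shares over all genes were 50.8 and 49.7%. Of the 404 lower genes, 12.4 and 3.22% had more in B. The part of this shared axis in the calls was not tested. Levels of 1119 genes (21%) did not overlap between the starvations, 488 (9.17%) higher and 631 (11.9%) lower, and of the genes that passed the test 75 higher and 230 lower ones did not overlap.

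**Figure D1:**
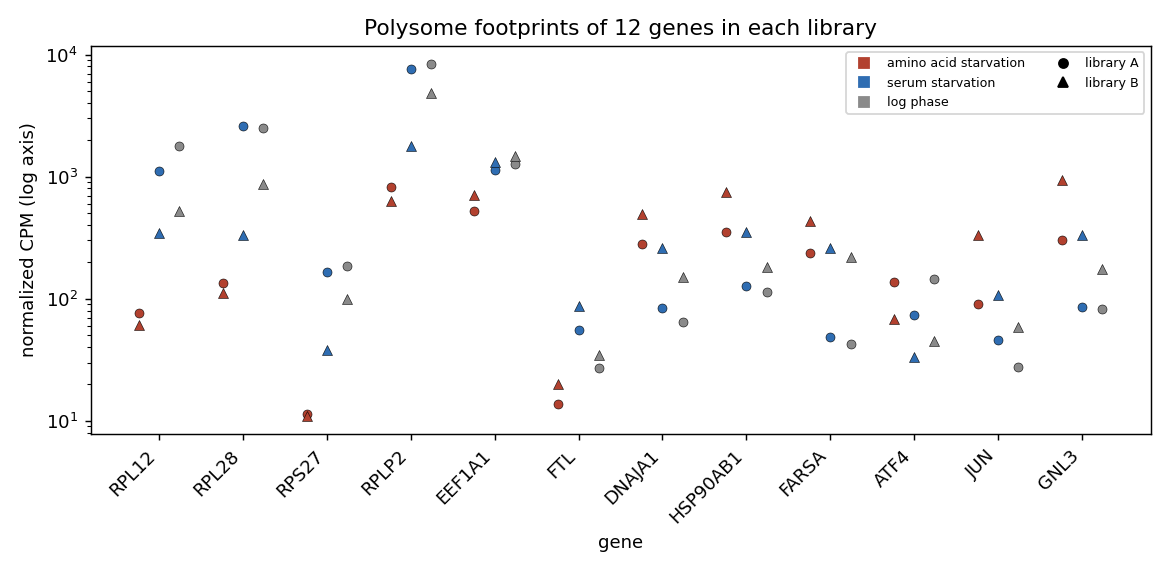
Normalized polysome CPM (log axis) for 12 genes in each library, with amino acid starvation left, serum starvation in the middle and log phase right, circles for library A and triangles for library B. RPL12, RPL28, RPS27, RPLP2, EEF1A1 and FTL lie lower in both amino acid starvation libraries than in both serum starvation libraries, while for FARSA, ATF4, JUN and GNL3 the 2 starvations overlap and the difference shows within each letter.

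Cytosolic ribosomal proteins, the protein components of both ribosomal subunits and the main class of 5'TOP mRNAs, were lower in amino acid starvation. Of 74 tested, 60 fell and 0 rose, with a median log2 difference of -1.53 (-2.12 in the A pair and -1.13 in the B pair), against 0.01 over all genes. The large subunit had 36 of 46 lower (median -1.43) and the small subunit 24 of 28 (median -1.68). Levels did not overlap between the starvations for 59 of the 74, each of them lower, against 11.9% of all tested genes. Together the 74 genes took 4.75 and 3.93% of coding footprints in amino acid starvation libraries A and B and 12.4 and 7.52% in serum starvation libraries A and B. Both amino acid starvation shares lie below both serum starvation shares.

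RPL12, a large subunit protein at the stalk base, showed the largest fall (ORF at chr9:127447721-127450733, minus strand, hg38). It had 76.9 and 61.0 CPM in amino acid starvation libraries A and B, against 1115 and 347 in serum starvation libraries A and B. Both amino acid starvation libraries were alike and lay far below both serum starvation libraries, whose A value was the higher. The log2 difference was -3.13 ± 0.34 (SE, adjusted p = 7.13e-07), an 8.73-fold lower level. RPL28, also of the large subunit, had 135 and 110.5 CPM in amino acid starvation, against 2605 and 335 in serum starvation (-2.96 ± 0.42, adjusted p = 2.65e-05). RPS27, a small subunit protein, had 11.3 and 10.8 CPM in amino acid starvation, against 167 and 38.02 in serum starvation (-2.86 ± 0.37, adjusted p = 1.10e-05). For both genes the groups did not overlap and the A pair was the wider one. The stalk proteins RPLP0, RPLP1 and RPLP2, which recruit elongation factors to the ribosome, fell by 2.38, 2.38 and 2.39 on the log2 scale. RPLP2 stood at 821 and 629.8 CPM in amino acid starvation and 7592 and 1767 in serum starvation. RPS6, the classical substrate of the S6 kinases downstream of mTORC1, had 866 and 709.8 CPM in amino acid starvation, against 2234 and 1204 in serum starvation (-1.06 ± 0.32, adjusted p = 0.0236). RPL3, of the peptidyl transferase region, had 400.4 and 320.3 CPM in amino acid starvation, against 1086 and 877 in serum starvation (-1.45 ± 0.29, adjusted p = 0.00159). In RPS6 and RPL3 as well, the 2 starvations did not overlap.

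The 14 ribosomal proteins that did not pass included RPL4 (0.02, adjusted p = 0.979), RPL5 (-0.36, adjusted p = 0.46), RPL6 (-0.29, adjusted p = 0.583) and RACK1 (-0.37, adjusted p = 0.466). RPL4 had 906 and 1162 CPM in amino acid starvation libraries A and B, against 701 and 1507 in serum starvation libraries A and B. Its groups overlapped, with B above A in both. When serum starvation library A was left out, 18 of 46 large and 14 of 28 small subunit genes were lower, and scaling to coding totals alone gave 26 and 18. Ribosomal protein genes have many processed pseudogenes, and how shared reads were assigned is not given in the sources used here, so single members are less certain than the group.

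**Figure D2:**
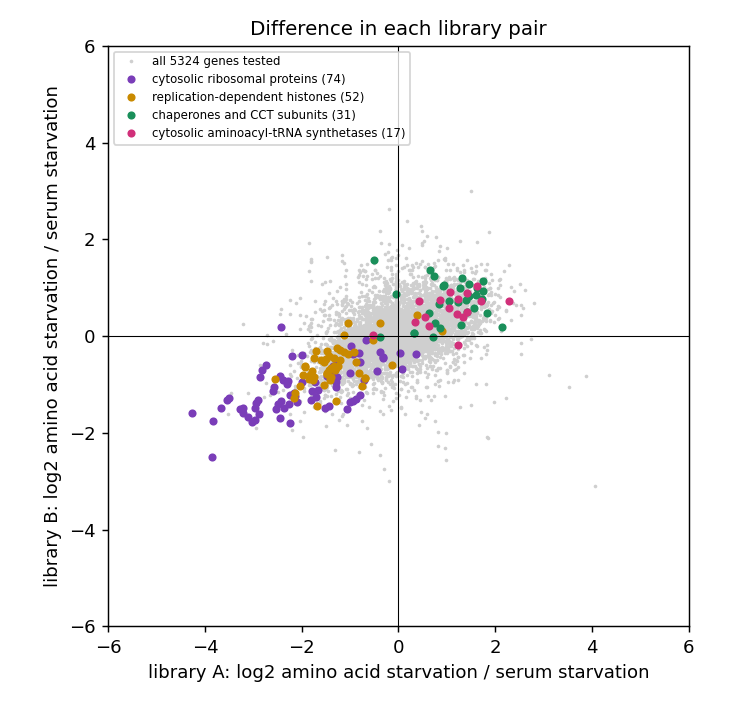
Log2 ratio of amino acid starvation over serum starvation per gene in the A libraries (x axis) and in the B libraries (y axis), for all 5324 tested genes (grey) and 4 gene groups (colours). Most ribosomal proteins and histones lie in the lower left quadrant and most chaperones and tRNA synthetases in the upper right one, with larger ratios along the A axis.

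The pyrimidine run of the sequences shown above, a C at the RefSeq start base followed by at least 4 of C or T on the transcribed strand, is present in 4.04% of the 27305 RefSeq promoter windows. Of the 60 tested ribosomal protein genes with such a window, 38 hold the run. Of these 38, 34 were lower in amino acid starvation (median -1.68), and of the 22 without it 14 were lower (median -1.24). RPS28, one of the 22, has an A at the annotated start and its pyrimidines from the next base on. It had 19.7 and 7.80 CPM in amino acid starvation, against 157 and 27.2 in serum starvation (-2.49 ± 0.34, adjusted p = 2.09e-05). Among all other genes, 27 of 239 with the run were lower (11.3%) and 14 higher (5.86%), with a median of -0.09, and of 3923 without it 240 were lower (6.12%) and 283 higher (7.21%), with a median of 0.02. A single annotated start stands in for the starts that HEK293 cells use, which were not measured here.

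The other 5'TOP genes, a list of translation factors and other mRNAs assigned to this class, moved less. Of its members with a RefSeq window, 14 hold the run at the annotated start and 5 do not. Of 26 tested, 5 fell and 0 rose, beside 7.59 and 6.63% of all genes tested, with a median of -0.35. The genes that fell were PFDN5, UXT, the tumour protein TPT1, the elongation factor EEF1A1, and COX7C of cytochrome c oxidase. PFDN5 is a subunit of prefoldin, which delivers actin and tubulin to the chaperonin, and UXT is a related protein. EEF1A1, which carries aminoacyl-tRNA to the ribosome, had 518 and 710.4 CPM in amino acid starvation, against 1133 and 1320 in serum starvation (-1.01 ± 0.30, adjusted p = 0.0212). TPT1 had 131 and 103 CPM in amino acid starvation, against 264 and 187 in serum starvation (-0.94 ± 0.27, adjusted p = 0.017). For both the groups did not overlap. EEF2, the translocation factor, had 353 and 1014 CPM in amino acid starvation, against 584 and 1014 in serum starvation, where the B libraries stood level (-0.35 ± 0.29, adjusted p = 0.463). PABPC1, the poly(A)-binding protein, did not pass either (-0.43, adjusted p = 0.354). Without serum starvation library A, 1 of the 26 was lower.

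Other parts of the translation machinery gave calls in both directions. Of 34 initiation factor genes 5 rose and 1 fell (median 0.18), where 6.63% of all genes tested rose and 7.59% fell. EIF3B and EIF3D, scaffold subunits of eIF3, rose (1.08, adjusted p = 0.0175, and 1.06, adjusted p = 0.00856). The gene that fell was EIF4EBP2, an mTORC1-controlled repressor of the cap-binding protein, with 28.6 and 19.3 CPM in amino acid starvation and 90.4 and 43.7 in serum starvation (-1.43 ± 0.30, adjusted p = 0.00176). Both amino acid starvation values lay below both serum starvation values. Of 9 elongation and termination factors, EEF1A1 fell and ABCE1, which recycles ribosomes, rose (0.95, adjusted p = 0.0161). Without serum starvation library A, 0 initiation, elongation or termination factors passed (edgeR's quasi-likelihood test), and the initiation factor median was 0.075, against -0.016 without amino acid starvation library A and 0.35 without amino acid starvation library B.

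Nucleolar ribosome biogenesis factors, which process and assemble pre-ribosomes, moved opposite to the ribosomal proteins. Of 30, 13 rose and 0 fell, beside 6.63 and 7.59% of all genes tested (median 0.64, against 0.01 over all genes). GNL3 (nucleostemin, ORF at chr3:52687372-52694275, plus strand, hg38) had 305 and 947 CPM in amino acid starvation, against 85.4 and 335 in serum starvation (1.65 ± 0.28, adjusted p = 0.000351). The values overlap between groups, since serum starvation B lies above amino acid starvation A, but each letter shows the rise. NCL (nucleolin) had 947 and 3986 CPM in amino acid starvation, against 355 and 1888 in serum starvation (1.24 ± 0.31, adjusted p = 0.00713). DDX21, an RNA helicase of rRNA synthesis and processing, had 452 and 921 CPM in amino acid starvation, against 144 and 453 in serum starvation (1.33 ± 0.28, adjusted p = 0.00185). DDX21 counts also among the DEAD and DEAH box helicases, of which 5 of 20 rose and 0 fell, with DDX1 at 1.58 and DDX56 at 1.58. Without amino acid starvation library A, 7 nucleolar factors were higher, with a median of 0.30. In the fit without serum starvation library A, 2 of the 30 nucleolar factors and 1 of the 20 helicases were higher.

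Replication-dependent histones, whose mRNAs end in a stem-loop instead of a poly(A) tail and are made in S phase, were lower in amino acid starvation polysomes. Of 52 genes 29 fell and 0 rose, beside 7.59 and 6.63% of all genes tested. The median was -1.005 (-1.40 in the A pair and -0.65 in the B pair). Without overlap, 14 lay lower and 1 higher, beside 11.9 and 9.17% of all genes tested. H2A had 7 of 13 lower, H2B 11 of 15, H3 4 of 8, H4 7 of 12 and the linker histones 0 of 3. H2AC13 (ORF at chr6:27808309-27808602, plus strand, hg38) had 517 and 258 CPM in amino acid starvation, against 2325 and 624 in serum starvation (-1.75 ± 0.32, adjusted p = 0.000642). H4C11 had 247 and 220.3 CPM in amino acid starvation, against 796 and 603 in serum starvation (-1.57 ± 0.29, adjusted p = 0.000676). The groups did not overlap for either gene. H2BC4 had 1461 and 681 CPM in amino acid starvation, against 5997 and 1391 in serum starvation (-1.54 ± 0.35, adjusted p = 0.00336), where serum starvation B lay between the amino acid starvation libraries. H2BC5, a histone gene with a polyadenylated form, had 6548 and 6883 CPM in amino acid starvation, against 14337 and 6762 in serum starvation, and did not pass (-0.59 ± 0.39, adjusted p = 0.34). H1-4, a linker histone, stood at 13528 and 16385 CPM in amino acid starvation, against 17628 and 13492 in serum starvation (-0.08, adjusted p = 0.926). SLBP, the protein that binds the histone stem-loop, rose (431 and 883 in amino acid starvation, against 194 and 605 in serum starvation, 0.84 ± 0.28, adjusted p = 0.0409).

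Together the 54 histone genes with a coding ORF, 52 of them tested, took 8.89% (A) and 6.15% (B) of coding footprints in amino acid starvation. In serum starvation they took 15.6% (A) and 7.79% (B). Amino acid starvation A thus lies above serum starvation B. The count of lower histones was 3 without serum starvation library A, 15 without amino acid starvation library A, 44 without amino acid starvation library B, 13 and 11 without log phase library A or B, and 8 with scaling to coding totals alone. Histone genes have near-identical copies, and 4 of them carried the same footprints as another gene in all 6 libraries, so reads may be split between copies.

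Genes of the respiratory chain and ATP synthase divided by size. Of 68 nuclear-encoded subunits 21 fell and 4 rose, beside 7.59 and 6.63% of all genes tested, with a median of -0.58. Those that fell had short called ORFs, with a median of 303 nt and at most 456 nt, and those that rose had at least 1014 nt. ATP5MC2, of the ATP synthase membrane ring, had 515 and 316 CPM in amino acid starvation, against 1923 and 605 in serum starvation (-1.41 ± 0.32, adjusted p = 0.00322). UQCRH, a small hinge protein of complex III, had 397 and 215 CPM in amino acid starvation, against 1106 and 431 in serum starvation (-1.24 ± 0.29, adjusted p = 0.0045). Neither gene overlapped between the starvations. SDHA, the catalytic subunit of complex II, had 89.98 and 260.0 CPM in amino acid starvation, against 33.5 and 135 in serum starvation (1.16 ± 0.27, adjusted p = 0.00477), a rise within each letter. NDUFA9 of complex I rose too, with 361 and 342 CPM in amino acid starvation, against 98.5 and 231 in serum starvation (1.17 ± 0.29, adjusted p = 0.00717). Also among the 4 that rose was ATP5F1A (1.07). The fit without serum starvation library A left 0 of the 68 past the threshold (edgeR's quasi-likelihood test).

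Of 67 mitochondrial ribosomal proteins 9 fell, beside 7.59% of all genes, and 4 rose, a share near the 6.63% of all genes. Their median was -0.20, but 0.045 with 1 lower and 3 higher when scaled to coding totals alone, and -0.36 without amino acid starvation library B. MRPL44 had 161 and 231 CPM in amino acid starvation, against 30.4 and 121 in serum starvation (1.61 ± 0.30, adjusted p = 0.000714). Its groups did not overlap. MRPS24 fell, with 169 and 130.2 CPM in amino acid starvation, against 682 and 193 in serum starvation (-1.30 ± 0.31, adjusted p = 0.00477). Called ORFs of the genes that fell had a median of 372 nt and of those that rose 738 nt. Of 25 genes of the Sec61 translocon, signal recognition particle and oligosaccharyltransferase, which bring proteins into the endoplasmic reticulum and glycosylate them, 9 fell and 2 rose (median -0.56). SSR4, a translocon-associated subunit, had 115 and 79.3 CPM in amino acid starvation, against 406 and 187 in serum starvation (-1.53 ± 0.28, adjusted p = 0.000592), and SEC61B fell by 1.04. The 2 that rose were SRP68 (1.19) and RPN1 (1.04). The called ORF of RPN1 is a truncated one of 18 nt. It held 61 and 69 footprints in amino acid starvation and 43 and 57 in serum starvation, so its value rests on a short stretch. Of 16 Sm and LSm genes, which form the core of spliceosomal and decay complexes, 3 fell, led by SNRPD2 with 862 and 607 CPM in amino acid starvation, against 4837 and 1354 in serum starvation (-1.83 ± 0.36, adjusted p = 0.00113). Leaving out serum starvation library A left 0 mitochondrial ribosomal and 0 Sm or LSm genes past the threshold (edgeR's quasi-likelihood test) and 1 of the 25 translocon and glycosylation genes lower.

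Length of the called ORF ran with direction over all genes. Of 1299 genes with ORFs of 300 nt to under 600 nt, 208 (16.0%) were lower and 32 (2.46%) higher in amino acid starvation, with a median log2 difference of -0.31, and without ribosomal proteins 173 of 1260 were lower. Among 872 genes of 1200 nt to under 2400 nt, 8 (0.917%) were lower and 169 (19.4%) higher, with a median of 0.40. Below 300 nt, 104 of 1137 were lower and 31 higher, and from 2400 nt on, 1 of 342 was lower and 14 higher. The median ORF was 1224 nt among higher genes, 408 nt among lower genes and 660 nt among all tested genes. Length also ran with the letter: in the class from 300 nt the median log2 difference of B minus A was -0.51 in amino acid starvation and -0.87 in serum starvation, and in the class from 1200 nt it was 0.77 and 0.91. The part of length and of the letter in the gene groups described here was not tested.

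**Figure D3:**
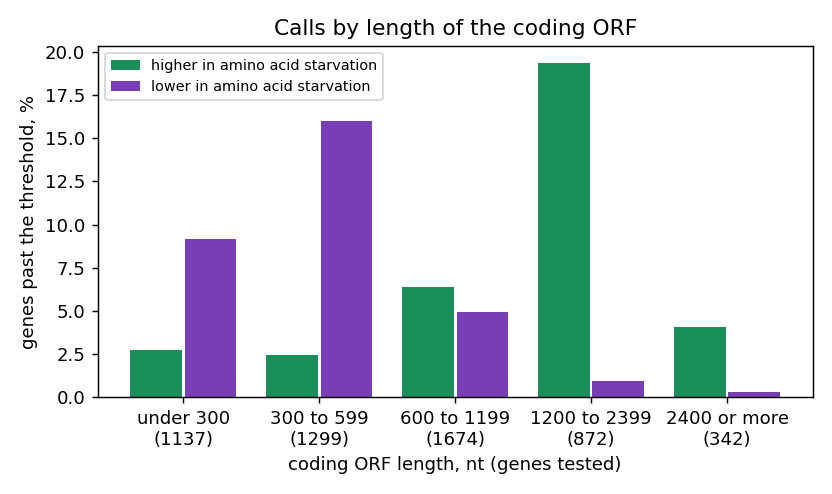
Percent of tested genes past the threshold (y axis) by length of the called coding ORF in nt (x axis, number of tested genes in brackets), with genes higher in amino acid starvation in green and lower ones in purple. Lower genes are most frequent in the class from 300 nt (16.0%) and higher genes in the class from 1200 nt (19.4%).

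Cytosolic chaperones, which fold new and damaged proteins, were higher in amino acid starvation. Of 24 HSP70, HSP90 and J-protein genes and their mitochondrial relatives on the list, 14 rose and 0 fell (median 0.99, and 0.93 and 0.73 in the A and B pairs). DNAJA1, a J-protein partner of HSP70 (ORF at chr9:33026548-33038903, plus strand, hg38), had 283 and 498 CPM in amino acid starvation, against 84.2 and 262 in serum starvation (1.33 ± 0.28, adjusted p = 0.00178). HSP90AB1 had 355 and 742 CPM in amino acid starvation, against 128 and 354 in serum starvation (1.25 ± 0.28, adjusted p = 0.00292). In both genes the lower amino acid starvation value lies just above the higher serum starvation value. HSP90AA1 had 1318 and 3589 CPM in amino acid starvation, against 390.4 and 1635 in serum starvation (1.42 ± 0.32, adjusted p = 0.00361), and here the groups overlapped. HSPA8, the constitutive HSP70, and HSPA1A, the heat-inducible one, rose by 1.00 and 1.04. HSPA1A has a near-identical copy, HSPA1B, so its reads may be shared. Of 7 subunits of the CCT chaperonin, which folds actin and tubulin, 6 rose (median 1.09, 0 without overlap), among them CCT8 (1.28 ± 0.29, adjusted p = 0.00391), while TCP1 did not pass (0.43, adjusted p = 0.405). Genes of prefoldin, the partner of CCT, and related genes such as UXT went the other way, with 4 of 9 lower and 0 higher (median -0.71). In the endoplasmic reticulum 2 of 17 chaperones and disulfide isomerases rose, where 6.63% of all genes tested were higher. The median of the 17 was 0.20, and -0.046 without serum starvation library A. PDIA3 was among those that rose (1.22, adjusted p = 0.00559), and HSPA5, the HSP70 there, stood at 0.20 (adjusted p = 0.694). Without serum starvation library A, 0 of the 24 cytosolic and 0 of the 7 chaperonin genes passed, with medians of 0.77 and 0.76 (edgeR's quasi-likelihood test).

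Cytosolic aminoacyl-tRNA synthetases, which charge tRNAs with amino acids, rose as well, 11 of 17 with 0 lower (median 0.82), beside 6.63% of all genes. FARSA, a subunit of the phenylalanine enzyme, had 236 and 430.5 CPM in amino acid starvation, against 48.1 and 259 in serum starvation (1.54 ± 0.31, adjusted p = 0.00163). Serum starvation B exceeded amino acid starvation A for FARSA. TARS1 had 334 and 544 CPM in amino acid starvation, against 141 and 321 in serum starvation, and IARS1 434 and 819 CPM in amino acid starvation, against 207 and 433 in serum starvation. For these 2 enzymes the groups did not overlap (0.99 ± 0.27, adjusted p = 0.0129, and 0.99 ± 0.27, adjusted p = 0.013). Leaving out serum starvation library A ended all 11 calls, with a median of 0.65.

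Genes of the amino acid response passed the test in part. Of 6 stress response regulators 2 rose and 0 fell. Over all genes tested 6.63% were higher and 7.59% lower. ATF4, the transcription factor translated when GCN2 is active, had 138 and 67.8 CPM in amino acid starvation, against 73.9 and 33.4 in serum starvation (0.96 ± 0.28, adjusted p = 0.0173). Its A libraries were the higher ones, and serum starvation A lay above amino acid starvation B. Against log phase, ATF4 stood at 0.22 (adjusted p = 0.617) in amino acid starvation and -0.74 (adjusted p = 1) in serum starvation, so neither difference from log phase passed. ATF3, another stress factor, had 107 and 222 CPM in amino acid starvation, against 59.3 and 113 in serum starvation (0.92 ± 0.27, adjusted p = 0.0194). Of 16 ATF4-target enzymes and transporters 3 rose and 1 fell (median 0.61). SLC38A2, the SNAT2 transporter of neutral amino acids, had 89.98 and 214 CPM in amino acid starvation, against 51.9 and 95.7 in serum starvation (0.99 ± 0.27, adjusted p = 0.012). GOT1, the cytosolic aspartate aminotransferase, had 41.7 and 58.6 CPM in amino acid starvation, against 14.9 and 34.1 in serum starvation (1.08 ± 0.31, adjusted p = 0.017), without overlap. SHMT2, of mitochondrial serine metabolism, rose by 0.81 (adjusted p = 0.036). SLC7A5, the LAT1 transporter of large neutral amino acids, fell, with 146 and 171 CPM in amino acid starvation, against 348 and 237 in serum starvation (-0.85 ± 0.27, adjusted p = 0.0339), also without overlap. Its partner SLC3A2 stood at 0.76 (adjusted p = 0.058), PSAT1 at 0.83 (adjusted p = 0.0616) and MTHFD2 at -0.75 (adjusted p = 0.0566). DDIT3, ASNS, SESN2, CHAC1, TRIB3 and SLC7A11 have no coding ORF under their names here. The median of the 16 was 0.12 without amino acid starvation library B. Without serum starvation library A, 0 of these 16 genes and 0 of the 6 stress regulators passed (edgeR's quasi-likelihood test).

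Serum-responsive genes were listed as well. Of 14 immediate early, SRF-target and ID genes 3 were higher in amino acid starvation and 0 lower, where 6.63% of all genes tested were higher. JUN had 91.2 and 331 CPM in amino acid starvation, against 46.3 and 107 in serum starvation (1.34 ± 0.28, adjusted p = 0.00176), with log phase at 27.6 and 59.1. ID3, a helix-loop-helix inhibitor induced by BMP and serum, had 324 and 257 CPM in amino acid starvation, against 199 and 97.8 in serum starvation, with log phase at 424 and 258. Both amino acid starvation values exceeded both serum starvation values (1.05 ± 0.27, adjusted p = 0.00965), and the difference of serum starvation from log phase was -1.23 (adjusted p = 0.199). CCN2, an SRF and YAP target, had few footprints, 2.98 and 10.5 CPM in amino acid starvation, against 0.932 and 2.33 in serum starvation (2.02 ± 0.61, adjusted p = 0.0235), with log phase at 1.21 and 0.451. Serum starvation stood at 0.80 against log phase for JUN and at 0.59 for CCN2, neither past the threshold. Of the 3 genes, only ID3 had a lower estimate in serum starvation than in log phase. The part of serum in these differences was not tested. MYC did not pass (0.31 ± 0.31, adjusted p = 0.559), with 1439 and 2987 CPM in amino acid starvation, against 1359 and 2044 in serum starvation, and 564 and 1141 in log phase. EGR1, FOS, IER2 and SRF have no coding ORF under their names here. Leaving out serum starvation library A kept 1 of the 14 past the threshold.

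The hnRNP and SR genes that passed were higher in amino acid starvation, while the Sm and LSm genes of the spliceosome core that passed were lower, as given above. Among all genes tested 6.63% were higher and 7.59% lower. Of 19 hnRNP genes, which package nascent RNA, 6 rose and 0 fell (median 0.72), HNRNPM with 422 and 1233 CPM in amino acid starvation, against 140.4 and 499 in serum starvation (1.44 ± 0.28, adjusted p = 0.00095). Of 17 SR splicing factors 4 rose (median 0.60), and SRSF5 had 655 and 979.6 CPM in amino acid starvation, against 264 and 611 in serum starvation (0.98 ± 0.28, adjusted p = 0.0188), without overlap. SF3B2 and SF3A3, of the U2 particle, were among the 12 largest rises of genes with at least 50 CPM on average in the higher group (1.62 and 1.47), as was HAT1, which acetylates new histones (1.51 ± 0.29, adjusted p = 0.000894). IFNGR1, the interferon gamma receptor, rose most of the genes above that level, with 50.1 and 78.3 CPM in amino acid starvation, against 8.39 and 37.0 in serum starvation (1.69 ± 0.32, adjusted p = 0.000894), and its groups did not overlap. Nuclear transport receptors had 3 of 18 higher (median 0.46), beside the 6.63% of all genes. C2H2 zinc finger genes, a large DNA-binding family, had 1 of 103 higher, ZNF341, a share below that of all genes, and a median of 0.06. ZNF341 held 2 and 24 footprints in amino acid starvation libraries A and B and 2 and 6 in serum starvation libraries A and B. Its call thus rests on few footprints, most of them in amino acid starvation library B. Once serum starvation library A was left out, 0 hnRNP, 0 SR, 0 nuclear transport and 0 zinc finger genes passed (edgeR's quasi-likelihood test), and the hnRNP median was 0.30. The SR median was 0.37 without amino acid starvation library A and 0.91 without amino acid starvation library B, that of nuclear transport receptors 0.73 without serum starvation library B, and that of zinc finger genes -0.067 without amino acid starvation library B.

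Cell cycle genes moved against the histones. Their counts stand beside 6.63% higher and 7.59% lower over all genes tested. Of 18 mitotic cyclins, kinases and regulators 8 rose and 0 fell (median 0.77), CCNB1 with 159.7 and 466 CPM in amino acid starvation, against 51.9 and 228 in serum starvation (1.29 ± 0.28, adjusted p = 0.0021). CDK1 had 290.2 and 469 CPM in amino acid starvation, against 79.8 and 288 in serum starvation (1.27 ± 0.29, adjusted p = 0.00348). Its groups only just did not overlap, while those of CCNB1 did overlap. Of 22 replication genes 6 rose and 1 fell (median 0.64). MCM4 and MCM7, of the replicative helicase, rose by 1.45 and 1.15, the sliding clamp PCNA rose by 0.95, and RPA3, the smallest subunit of the single-strand binding protein, fell by 0.99 (adjusted p = 0.0156). Of 17 nucleotide synthesis enzymes 7 rose (median 0.62), among them PPAT, the first enzyme of purine synthesis (97.7 and 206 CPM in amino acid starvation, against 25.5 and 132 in serum starvation, 1.20 ± 0.30, adjusted p = 0.00624), CTPS1 (1.04) and the ribonucleotide reductase subunit RRM2 (0.93). Tubulins and actins had 6 of 14 higher (median 0.76), TUBB4B with 1.60 and ACTB with 0.99. Members of these last families share much sequence, so reads may be split among them. The replication median was 0.39 without amino acid starvation library A and 0.36 without serum starvation library A, and that of tubulins and actins 0.44 without amino acid starvation library A. Without serum starvation library A, 0 mitotic and 0 replication genes passed (edgeR's quasi-likelihood test), and 1 nucleotide synthesis gene and 1 of the tubulins and actins did.

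Metabolic and degradation genes divided by member. The counts below stand beside 6.63% higher and 7.59% lower over all genes tested. The proteasome, which degrades ubiquitin-tagged proteins, had 10 of 37 genes higher and 2 lower (median 0.53). PSMD12, of its lid, had 232 and 645 CPM in amino acid starvation, against 55.3 and 359 in serum starvation (1.41 ± 0.29, adjusted p = 0.00178), while the assembly factor POMP fell, with 589 and 319.6 CPM in amino acid starvation, against 1516 and 649 in serum starvation (-1.19 ± 0.30, adjusted p = 0.0069). Of 10 glycolytic enzymes 3 rose, PGK1 by 1.33 and PKM by 1.27, whereas TPI1 (-0.51, adjusted p = 0.319) and GAPDH (-0.38, adjusted p = 0.406) did not pass. Cholesterol synthesis and SREBP2 targets, which respond to serum lipids, had 2 of 17 higher and 2 lower. HMGCS1, which makes HMG-CoA, and the squalene synthase FDFT1 rose (1.05 and 1.15), and INSIG1, the retention protein of SREBP, fell, with 60.2 and 32.9 CPM in amino acid starvation, against 169 and 68.8 in serum starvation (-1.28 ± 0.28, adjusted p = 0.00249), as did the sterol isomerase EBP (-0.86, adjusted p = 0.0322). Of 8 polyamine genes, the spermine synthase SMS and the decarboxylase AMD1 fell (-1.17, adjusted p = 0.00477, and -0.82, adjusted p = 0.036) and 0 rose. Among 13 Rag, mTORC1 and autophagy regulators, LAMTOR4 and LAMTOR2 of the Ragulator, which holds Rag GTPases on the lysosome, fell (-1.44, adjusted p = 0.00185, and -1.08, adjusted p = 0.0209). SQSTM1, the autophagy receptor p62, rose (0.81 ± 0.28, adjusted p = 0.0457). The proteasome median was 0.11 without amino acid starvation library A, 0.93 without amino acid starvation library B, 0.23 without serum starvation library A and 0.83 without serum starvation library B. Leaving out serum starvation library A ended the calls in each of these 5 lists, and scaling to coding totals alone left 3 proteasome genes higher.

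Ferritin, the iron store, was lower in amino acid starvation; both genes were picked after their values were seen. FTL, the light chain, had 13.7 and 20.0 CPM in amino acid starvation, against 55.3 and 86.4 in serum starvation and 26.8 and 34.3 in log phase (-2.06 ± 0.31 between the starvations, adjusted p = 4.61e-05). FTH1, the heavy chain, had 14.3 and 30.2 CPM in amino acid starvation, against 41.3 and 111 in serum starvation and 21.8 and 52.8 in log phase (-1.74 ± 0.30, adjusted p = 0.000413). In both genes the starvations did not overlap, and serum starvation was the highest of the conditions within each letter. For both genes the B libraries were the higher ones in all conditions.

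Log phase served to place each starvation, and since both comparisons share the log phase libraries, their values are given side by side only. Against log phase 1319 genes (24.8%) passed in amino acid starvation, 641 (12%) higher and 678 (12.7%) lower (1872, or 35.2%, at an unadjusted p under 0.05), and 1 gene (0.0188%) passed in serum starvation (175, or 3.29%, at an unadjusted p under 0.05, edgeR's quasi-likelihood test). That gene was PNRC1, a nuclear receptor coactivator, with 23.2 and 25.1 CPM in amino acid starvation, 40.7 and 42.9 in serum starvation and 14.0 and 11.3 in log phase (1.70 for serum starvation against log phase, adjusted p = 0.0323). Ribosomal proteins had a median log2 difference from log phase of -2.02 in amino acid starvation and -0.45 in serum starvation, and histones -1.17 and -0.08. The medians were 1.19 and 0.20 for cytosolic chaperones, 1.63 and 0.51 for CCT subunits, 1.09 and 0.28 for tRNA synthetases, and -0.70 and -0.12 for respiratory chain genes. RPL12 stood at -3.76 in amino acid starvation and -0.63 (adjusted p = 1) in serum starvation, and MYC at 1.37 (adjusted p = 0.00167) and 1.06 (adjusted p = 0.87). JUN was 2.13 (adjusted p = 3.04e-06) in amino acid starvation and 0.80 (adjusted p = 1) in serum starvation.

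**Figure D4:**
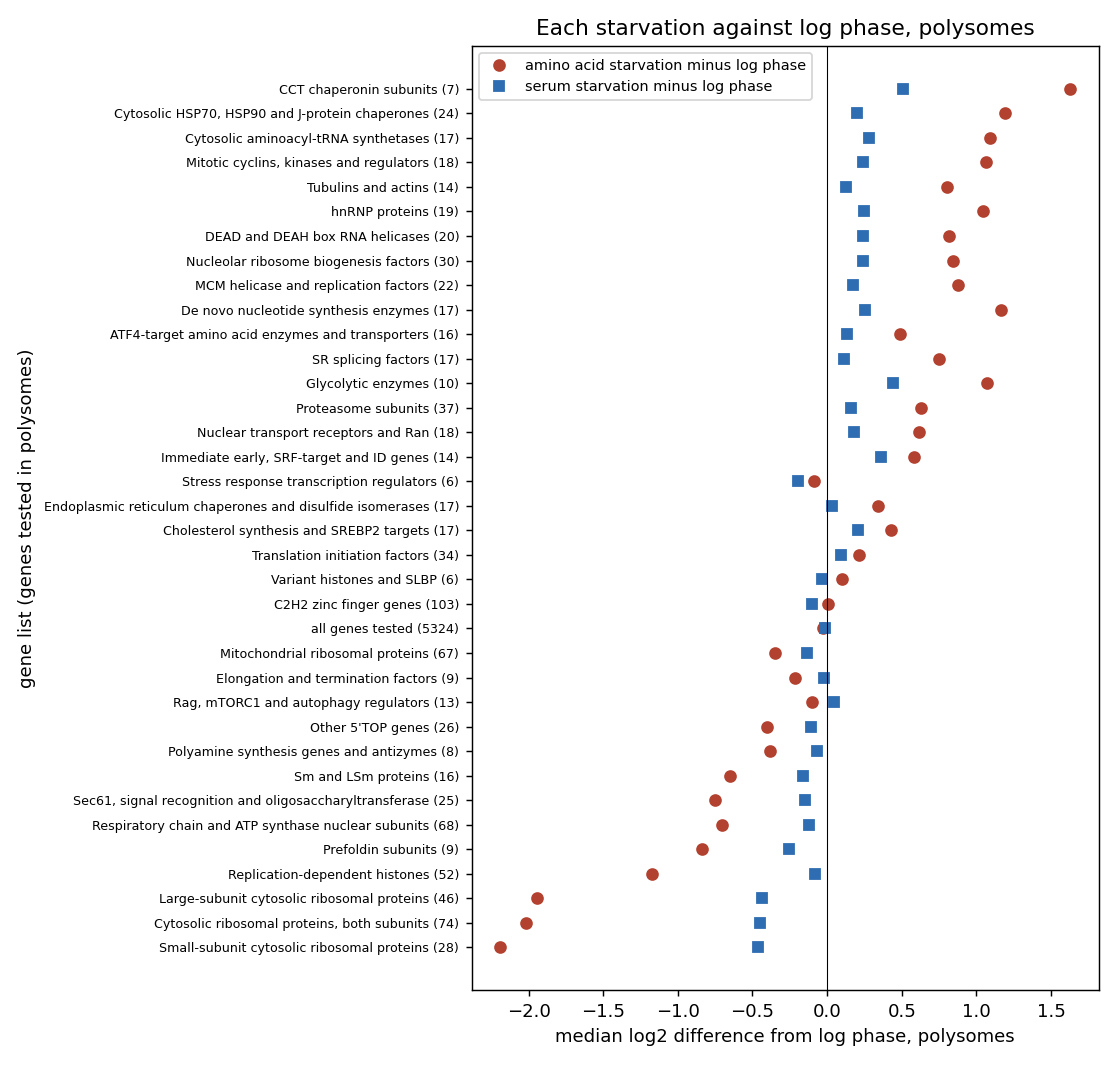
Median log2 difference from log phase polysomes (x axis) for each gene list (y axis, tested genes in brackets), with amino acid starvation as circles and serum starvation as squares. Ribosomal proteins of both subunits lie at -2.02 in amino acid starvation and -0.45 in serum starvation, and CCT subunits at 1.63 and 0.51.

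Monosomes, the fraction with 1 ribosome per mRNA, gave the same comparison at lower depth, with 119947 to 211537 coding footprints in 3 of the 4 libraries and 303642 in serum starvation monosome B. There 123 of 4765 genes (2.58%) passed, 89 (1.87%) higher and 34 (0.714%) lower in amino acid starvation, and 713 (15%) had an unadjusted p under 0.05. The test of the difference between fractions, over all 12 libraries with the letter as a block within each fraction, called 395 of 4765 genes (8.29%), 128 (2.69%) with a higher and 267 (5.6%) with a lower value in polysomes (1043, or 21.9%, at an unadjusted p under 0.05). Without the block 0 passed (166 at an unadjusted p under 0.05, edgeR's quasi-likelihood test), and with 1 block for both fractions 11 did. Leaving out a library gave 78 to 555, with 78 without serum starvation monosome B, 87 without amino acid starvation monosome B and 88 without serum starvation polysome A.

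Histones showed the widest gap between the fractions among the lists. Their median log2 difference was -1.005 in polysomes and 1.30 in monosomes, where 30 of 52 rose and 0 fell, and 17 genes both fell in polysomes and rose in monosomes. The gap passed for 42 of the 52, each lower in polysomes, with a median of -2.37, and for 29 to 44 when a library was left out, 8 with 1 block for both fractions and 0 without a block. H2AC13 had 3372 and 1480 CPM in amino acid starvation monosomes A and B, against 788 and 767 in serum starvation monosomes A and B, a rise of 1.51 (adjusted p = 0.00191) beside a fall of 1.75 in polysomes. H4C1 stood at 2.26 in monosomes (adjusted p = 8.01e-08), and its difference between fractions was -3.20 ± 0.45 (adjusted p = 8.89e-09). Respiratory chain genes had 25 of 68 with a lower value in polysomes (medians -0.58 in polysomes and 0.33 in monosomes). Ribosomal proteins were lower in both fractions, with medians of -1.53 in polysomes and -0.63 in monosomes, where 11 of 74 fell and 1 rose. RPS12 fell alike in both (-2.52 in polysomes and -2.19 in monosomes, difference adjusted p = 0.742). ATF4 was higher in polysomes and stood at -0.80 in monosomes (adjusted p = 0.175), a difference of 1.74 ± 0.43 (adjusted p = 0.00298).

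**Figure D5:**
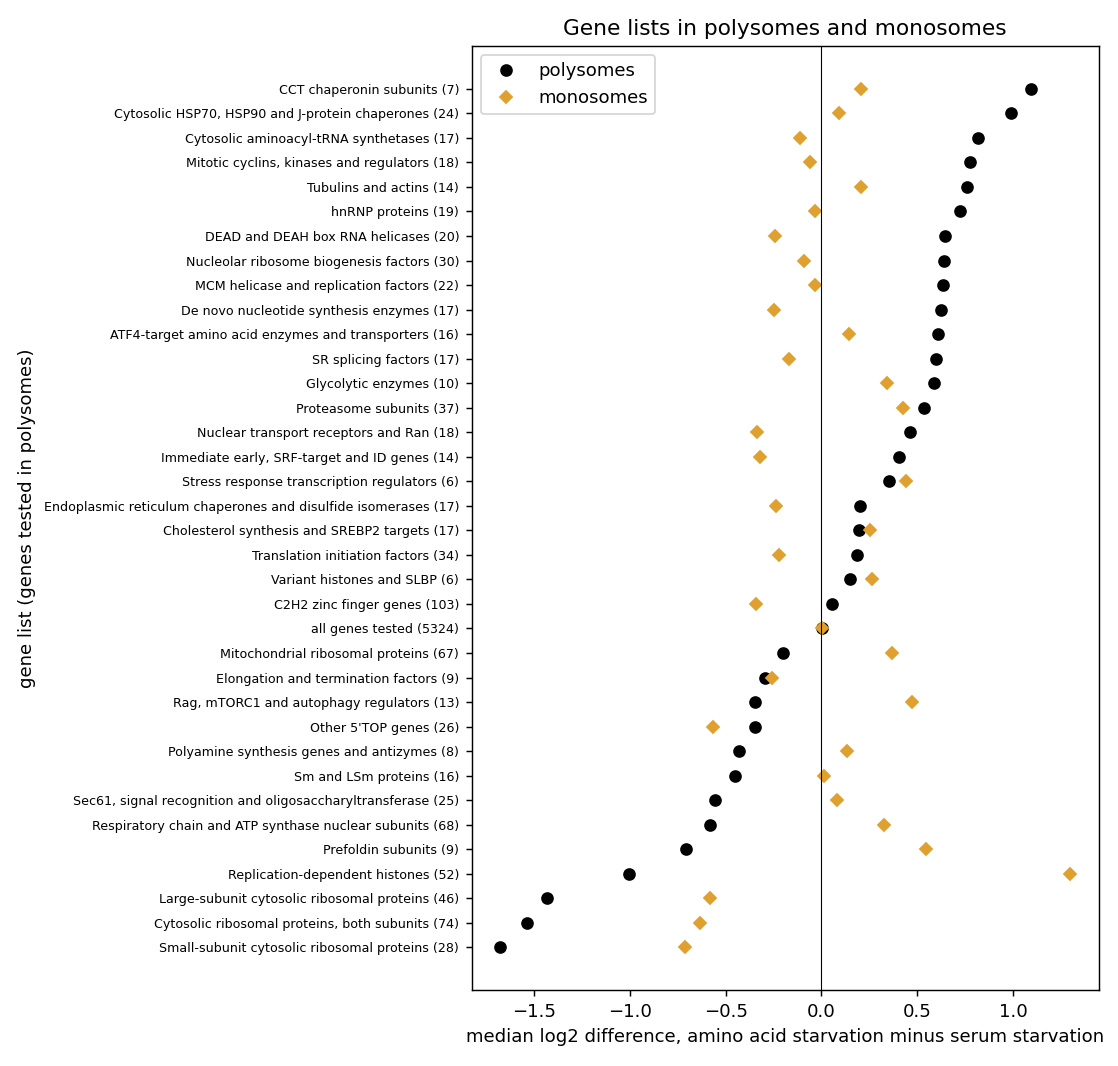
Median log2 difference of amino acid starvation minus serum starvation (x axis) for each gene list (y axis, genes tested in polysomes in brackets) in polysomes (circles) and monosomes (diamonds). Replication-dependent histones lie at -1.005 in polysomes and 1.30 in monosomes, and ribosomal proteins of both subunits lie below 0 in both fractions.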

How the data were processed

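Per the labels, ribosome footprints of 17 to 34 nt from pooled gradient fractions of HEK293 cells went through 14 cycles of PCR and were sequenced as 75 nt reads. The submitters' processing notes name Bowtie 1.0 and hg38 without their role. The authors deposited 1 table of 149028 ORFs from the caller PRICE, with expected counts per library and a p-value per ORF. Each codon was counted once, which kept 124830 ORFs, 7031 of coding types, and expected counts of coding types (CDS, Trunc and Variant) were added up within each gene, then rounded to integers. Genes come as identifiers, and 6032 of 6375 genes were named from RefSeq GRCh38.p14 by position.

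The 6 polysome libraries were fitted with edgeR 4.0.16 (R 4.3.3, quasi-likelihood, condition plus letter, TMM on coding totals, filterByExpr with a minimum count of 10 and total of 15, 2 residual degrees of freedom). The common biological coefficient of variation was 0.193. SE is the log2 difference divided by the square root of F. No label links the column letters (A, B) to a replicate number. B minus A deviations correlated over genes with r of 0.725 between the starvations. Polysome and monosome differences were compared over 12 libraries with the letter within each fraction as a block. DESeq2 1.42.0, other scalings, filters, ORF sets, blocks, thinning to 1493886 coding footprints and leaving out each library were alternatives. The gene lists and the members named (up to 12 genes per direction with the largest difference, at least 50 CPM on average in the higher group and the same sign in both pairs, the 4 lowest-p members per list, a fixed list and genes said to be picked later) were chosen with earlier results of these data known, and a few genes under these rules are not reported here. Promoter windows were matched by symbol for 4222 tested genes.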

Additional observations from a re-analysis of the deposited data

Results flagged for a closer look

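For 395 genes the difference between amino acid starvation and serum starvation itself differed between polysomes and monosomes. Values in this part, unless marked as CPM or percent, are log2 differences of polysomes minus monosomes from that test (edgeR's quasi-likelihood test over 12 libraries, adjusted p under 0.05). They are given for genes of the naming rule, for genes described above and for H1-1, H3C2, NDUFB4 and DAD1, picked after their values were seen. Among histones, the value was -3.30 for H2AC14, -3.28 for H2AC13, -3.23 for H4C11, -3.20 for H4C1, -3.01 for H2BC4, -2.76 for H1-1 and -2.75 for H3C2. Ribosomal proteins past the threshold included RPS27 at -1.87, RPLP2 at -1.83, RPL12 at -1.75, RPLP0 at -1.67 and RPS2 at -1.46. Short genes of mitochondria and the endoplasmic reticulum were also lower in polysomes by this measure, with SEC61B at -2.11, MRPL54 at -1.99, ATP5MC2 at -1.85, MANF at -1.76, NDUFB4 at -1.67, SSR4 at -1.66, MRPS24 at -1.52 and DAD1 at -1.35. The same held for EBP at -2.67, POMP at -1.78, UXT at -1.70, RPA3 at -1.68, INSIG1 at -1.61 and SMS at -1.55.

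Genes with a higher value in polysomes included regulators, with SQSTM1 at 2.40, SOX4 at 2.11, ATF4 at 1.74, JUN at 1.64, CCNB1 at 1.53 and CDK1 at 1.37. For SQSTM1, SOX4 and other genes of this part, among them PPAT, H1-1 and EBP, some of the shallow monosome libraries held few footprints. SQSTM1 had 18.5 and 27.4 CPM in amino acid starvation monosomes A and B, against 35.4 and 92.1 in serum starvation monosomes. SOX4 had 12.3 and 114 CPM, against 17.7 and 157. PPAT had 49.2 and 50.3 CPM in amino acid starvation monosomes, against 53.1 and 137 in serum starvation monosomes. In serum starvation monosomes A and B, H1-1 had 35.4 and 20.8 CPM and EBP 35.4 and 146. RNA processing and ribosome assembly genes were SRSF5 at 1.95, DDX21 at 1.95, DDX56 at 1.79, HNRNPM at 1.75, GNL3 at 1.54, SF3B2 at 1.45 and SRSF6 at 1.31. Replication and nucleotide genes were PPAT at 2.20, MCM4 at 1.87, MCM7 at 1.84, CTPS1 at 1.79 and HAT1 at 1.36. The rest were HMGCS1 at 1.96, PSMD2 at 1.69, EIF3B at 1.51, TUBB4B at 1.45, HSPA8 at 1.41, EIF3D at 1.39 and TARS1 at 1.32.

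Outside the coding footprints, a 6 nt ORF on a noncoding transcript at chr12:117188959-117188964 (minus strand, hg38) held 8.72% of all footprints of amino acid starvation polysome A, against 0.000115% in amino acid starvation polysome B, 0.00135 and 0.0101% in serum starvation polysomes A and B and 0.00404 and 0.000167% in log phase polysomes A and B. It is not part of any coding total used here.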

How the results depend on the processing

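The counts of genes moved with the settings more than the signs did. Against 353 higher and 404 lower genes, the fit with no replicate block gave 0 and 0, 12 libraries with 1 replicate block for both fractions 2 and 46, the 4 compared libraries alone 247 and 218, coding totals with no further factor 190 and 93, and CDS-type ORFs alone 83 and 65 of 822 genes tested. Leaving out single libraries gave 23 to 601 higher and 62 to 762 lower genes. The share of calls that were higher was 46.6%, and 67.1% with coding totals alone, which moved the median of all genes to 0.22. A filter of 50 footprints in 2 libraries gave 513 and 374. RLE factors, DESeq2, no filter, ORFs with a caller p under 1e-4, thinning, a replicate block within each fraction of 12 libraries and, chosen after the data were seen, library factors from genes other than ribosomal proteins gave counts within 1.5 times the main ones. All 757 genes kept their sign where retested, except 1 of 136 with CDS-type ORFs and 1 of 540 with the stricter caller p. These fits reuse libraries of the main one, so the kept signs are no separate evidence. For the difference between fractions, the 395 calls became 0 with no replicate block, 11 with 1 replicate block for both fractions, 177 with coding totals alone, 351 with RLE factors and 78 to 555 without single libraries. Where a library was left out, the lone library of its group is assumed to vary like the others. Depth limits the monosome comparison, whose libraries hold 119947 to 303642 coding footprints. The causes of these shifts were not tested.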
